A study of Mus musculus with 12 samples.

Results

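The comparison of the variant human GFI1 knock-in with wild type took the 3 SNP arrays and the 3 WT arrays, 6 of the 12 arrays of the series, chosen by their labels alone. The study asked which genes a variant of human GFI1 regulates in a mouse model, in relation to acute myeloid leukaemia. RNA came from granulocyte-monocyte precursors (GMPs), sorted by flow cytometry from the bone marrow of C57BL/6 mice and hybridised to Affymetrix arrays of the Mouse Gene 1.0 ST type. The WT mice carried the mouse Gfi1 gene unaltered, and the SNP mice were human Gfi1-SNP knock-in mice (Gfi1-SNP36N in the series' title), which carried a variant form of the human gene. The other 6 arrays, used here to estimate the error and to set levels beside those of the SNP arrays, were 3 of human Gfi1-wt knock-in mice (wtKI), which carried the common human form, and 3 of Gfi1 knock-out mice (KO). SNP against WT therefore changed both the species of the gene and its variant, and the wtKI values show where the common human form lay. No age, number of founder lines or zygosity was taken from the labels. The labels do not say that arrays of a group came from separate mice, and p-values here reflect only how much these samples vary, part of which may be technical.

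GFI1 is a zinc-finger protein that binds DNA and represses transcription through partners such as the demethylase LSD1 (Kdm1a) and histone deacetylases. In the bone marrow it favours the granulocyte over the monocyte fate and holds the proliferation of stem cells and progenitors in check. GMPs are the precursors of neutrophils, monocytes and macrophages, and they carry the surface proteins Kit and Cd34 and make the proteases of the first neutrophil granules.

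In short, the variant arrays differed most clearly from wild type in single genes. The interferon-inducible GTPase Iigp1 and the zinc-finger factor Egr2 were higher on every SNP array than on any WT array. The methyltransferase Camkmt, the respiratory chain subunit Ndufs5 and the splicing factor Sf3a2 were lower. Iigp1, Egr2 and Ndufs5 rest on 1 probe set each, and all 3 SNP arrays of Camkmt were at or below the 5th percentile of signal. Of 14179 genes with a value, 0 passed a limma adjusted p of 0.05 (0.0% called), with 2085 at an unadjusted p under 0.05. SNP 1 stood apart from the other arrays, and the large shifts of whole groups of genes (late neutrophil, erythroid and B-lineage genes up, ribosome biogenesis genes down) lay on that array. The main results are therefore given with SNP 1 and without it.

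The SNP 1 array was the least like the others. Its median correlation with the other 11 arrays across probe sets was 0.633. KO 1 came next at 0.70, and the rest reached 0.836 to 0.886. The spread among the probe sets of a gene had an SD of 0.745 (log2) on SNP 1 and 0.757 on KO 1, against 0.321 to 0.458 elsewhere. On SNP 1, 3168 genes (22.3%) lay at least 1 (log2) from the mean of SNP 2 and SNP 3, 1244 above it and 1924 below. The same measure gave 505, 658 and 467 genes for WT 1, WT 2 and WT 3. The 5th percentile of signal, used here as a mark of values near background, lay between 4.39 and 5.65 on the 12 arrays. The Y-linked gene Eif2s3y was at 2.06 on WT 3 and between 8.05 and 8.86 on the other 5 SNP and WT arrays, so 1 WT array was low in it and no SNP array was. The same held for Kdm5d, at 4.04 on WT 3 and between 7.49 and 9.01 on the others. Over the 3 Y-linked genes measured, wtKI 2 and wtKI 3 were low as well. Their means lay at -3.29 and -3.06 from the WT mean, with WT 3 at -3.295 and wtKI 1 at 2.15. SNP against wtKI is therefore also unbalanced in Y-linked signal.

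The GMP markers checked the sorted cell type. Cd34 was at 10.72, 10.54 and 10.73 on WT 1 to WT 3 and at 10.73 and 10.26 on SNP 2 and SNP 3, but at 7.35 on SNP 1. Kit, the receptor of stem cell factor, was at 8.83, 8.90 and 8.72 on the WT arrays, at 9.06 and 8.49 on SNP 2 and SNP 3, and at 6.86 on SNP 1. The protease gene Ctsg was at 9.57 on SNP 1 and between 11.27 and 11.57 on the other 5. SNP 1 was the lowest array for these 3 genes. It was not low in all GMP genes: of the 14 measured GMP identity genes, 7 lay above the mean of SNP 2 and SNP 3 when read on SNP 1, among them Fcgr3, an Fc receptor of myeloid cells (8.93 against 8.67 and 8.06), and Ptprc, the leukocyte antigen CD45 (10.31 against 8.75 and 9.04). The mean of that list lay -0.52 from WT on SNP 1, -0.10 on SNP 2 and -0.30 on SNP 3. In sorted bulk samples, fewer cells of a type and less RNA per cell cannot be told apart.

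Late neutrophil genes, which encode the secondary granules and surface proteins of maturing neutrophils, were higher in SNP on all 12 arrays in 23 of 23 measured members, with a median difference of 0.98 (log2). Without SNP 1 they were higher in 9 of 23, with a median of -0.15. The mean of the list lay 3.53 above the WT mean on SNP 1, against -0.16 on SNP 2 and 0.12 on SNP 3. The WT arrays ranged from -0.36 to 0.43. Among all 14179 genes the median difference was -0.01 in both fits, and 905 genes (6.38%) were higher and 1180 (8.32%) lower at an unadjusted p under 0.05, together 14.7% of genes. That balance depended on the summary, with 1233 higher and 824 lower for the brightest probe set of each gene, and 509 higher and 1040 lower without the dimmest 30% of genes. Of the late neutrophil genes 3 were higher at that level and 0 lower. Ly6g, the surface antigen that defines mouse neutrophils, was at 9.46 on SNP 1, 3.32 on SNP 2 and 5.90 on SNP 3, against 3.24, 3.98 and 3.57 in WT. SNP 1 had by far the highest Ly6g level, and SNP 2 lay within the WT range. Cxcr2, the neutrophil chemokine receptor, was at 11.18 on SNP 1 but at 7.51 and 7.84 on SNP 2 and SNP 3, below the WT arrays at 8.98, 9.03 and 8.38. Its difference was 0.05 ± 0.77 (SE, adjusted p = 0.978) with SNP 1 and -1.12 ± 0.40 (adjusted p = 0.462) without it. Cxcr2 was thus above WT on 1 SNP array and below WT on the other 2.

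Mmp8, the collagenase of neutrophil granules, was higher on all 3 SNP arrays. Its level was 11.34, 8.75 and 8.12 on SNP 1 to SNP 3 and 6.49, 7.10 and 7.01 on WT 1 to WT 3. The difference was 2.53 ± 0.65 (SE, adjusted p = 0.255), and 1.56 ± 0.35 (adjusted p = 0.352) without SNP 1. The wtKI arrays lay at 8.87, 8.17 and 7.57, which overlaps the SNP range, and the KO arrays at 10.32, 10.35 and 10.48. Retnlg, a secreted protein of neutrophils, was at 11.37, 7.20 and 8.42 on the SNP arrays and at 6.74, 6.06 and 6.50 in WT. It did not overlap between the groups, but SNP 1 lay far above the other arrays, and its difference moved from 2.57 ± 1.13 to 1.38 ± 1.02 without SNP 1 (adjusted p = 0.330 and 0.667).

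Erythroid, B-lineage, and T and NK cell genes were also higher on SNP 1, while megakaryocyte and platelet genes (-0.01 from the WT mean) and mast cell, basophil and eosinophil genes (0.03) were not. Erythroid genes were higher in 13 of 14 members (median 1.03), and in 6 of 14 without SNP 1 (median -0.07). Their mean was 3.20 above WT on SNP 1, -0.29 on SNP 2 and 0.12 on SNP 3, with WT arrays from -0.45 to 0.39. Klf1, the master factor of red cell genes, was at 9.50 on SNP 1 and at 5.70 and 4.61 on SNP 2 and SNP 3, against 3.57 to 5.17 in WT. Epb42, a red cell membrane protein, was at 9.21 on SNP 1 and at 5.04 and 4.99 on the other SNP arrays. Among the SNP and WT arrays, the high erythroid signal lay on SNP 1. KO 1 was also above the WT mean for erythroid genes, at 1.355, with KO 2 at -0.52 and KO 3 at -0.14. For B-lineage genes the KO arrays lay at 0.71, -0.08 and -0.24. All WT arrays of Ebf1, Rag1, Klf1, Epb42 and Ly6g were at or below the 5th percentile, so their sizes are not exact. So were 2 of the 3 SNP arrays (SNP 2 and SNP 3) of Ebf1, Rag1 and Epb42, and 1 SNP array each of Klf1 and Ly6g.

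B-lineage genes were higher in 12 of 12 members (median 1.01), and in 9 of 12 without SNP 1 (median 0.34). Their mean lay 2.98 above WT on SNP 1, 0.29 on SNP 2 and 0.52 on SNP 3, while the WT arrays stayed between -0.03 and 0.02. Ebf1, the factor that specifies B cells, was at 9.38, 4.66 and 4.63 on the SNP arrays and at 1.92, 1.12 and 4.03 in WT. Rag1, which cuts antigen receptor genes, was at 8.92 on SNP 1, and at 5.37 and 4.72 on SNP 2 and SNP 3 within or just above the WT range of 3.42 to 5.06. Of the T and NK cell list 9 of 12 members were higher (median 0.39), of the monocyte list 11 of 16 (0.19) and of the macrophage list 9 of 11 (0.35). Without SNP 1 these counts were 7 of 12, 7 of 16 and 5 of 11. The part of these markers in the other results was not tested. Where a gene is given below without SNP 1, its value comes from arrays with late neutrophil, erythroid and B-lineage means of at most 0.52 above WT.

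**Figure D1:**
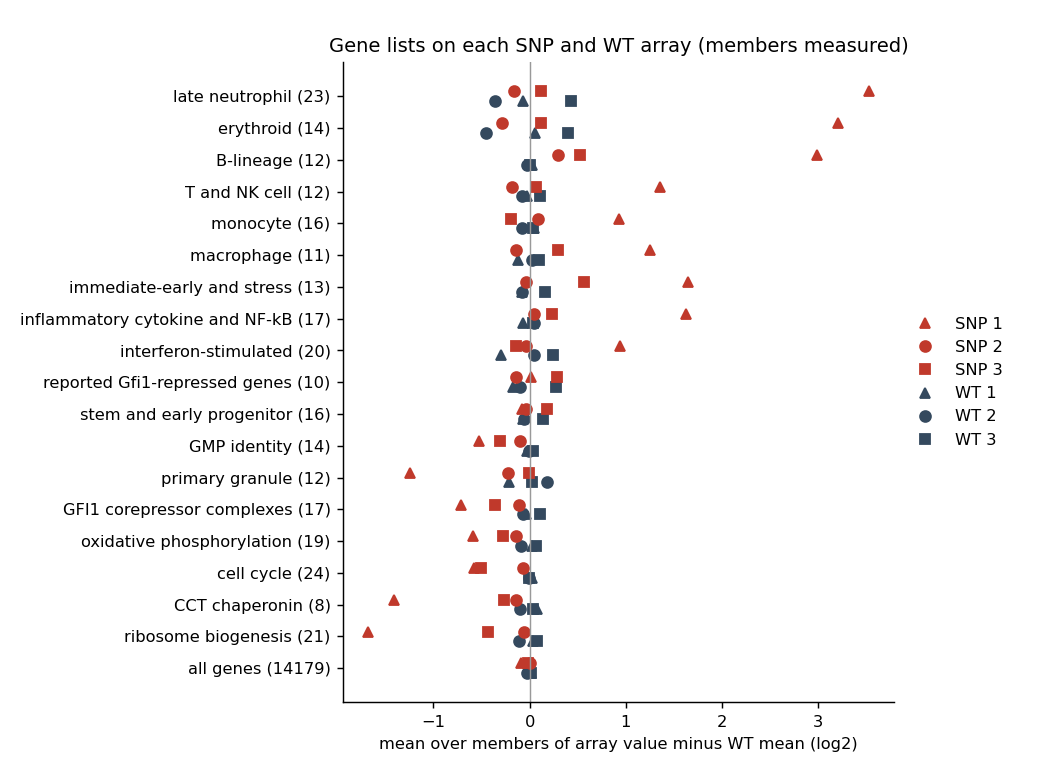
Gene lists on each SNP and WT array, as the mean over the members of the array's value minus the WT mean (log2), with triangles, circles and squares for replicates 1, 2 and 3 and the number of measured members in brackets. SNP 1 lies far to the right for late neutrophil (3.53), erythroid (3.20) and B-lineage (2.98) genes and far to the left for ribosome biogenesis genes (-1.68). SNP 2 and SNP 3 lie nearer to the WT arrays, though for B-lineage genes both lie above them (0.29 and 0.52) and for ribosome biogenesis genes SNP 3 lies below them (-0.43).

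Without SNP 1, limma again called 0 genes (0.0%) at an adjusted p of 0.05, with a smallest adjusted p of 0.256, against 0.0652 on all 12 arrays. At an unadjusted p under 0.05 there were then 1392 genes (9.82%), 662 higher (4.67%) and 730 lower (5.15%). Of these, 989 were among the 2085 found on all 12 arrays, in the same direction. The count of 2085 fell to 1321 without WT 1, and that of 1392 to 666 without SNP 3 as well. A further 1096 genes were under 0.05 only with SNP 1 and 403 only without it. Differences of at least 1 (log2) were seen for 996 genes with SNP 1 and for 464 without it. SNP and WT arrays did not overlap for 3341 genes (23.6%), 1645 higher (11.6%) and 1696 lower. Without SNP 1, with 2 arrays against 3, they did not overlap for 4742 genes (33.4%), with 2376 higher (16.8%) and 2366 lower. Of the 105661 probe sets, 0 were called in either fit (0.0%), with 13450 (12.7%) at an unadjusted p under 0.05 on all 12 arrays and 9423 (8.92%) without SNP 1. The median probe set was 0.11 lower in SNP on all 12 arrays (-0.11), and 0.02 higher once each array was centred on its median. Probe-set differences are therefore read against that shift.

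**Figure D2:**
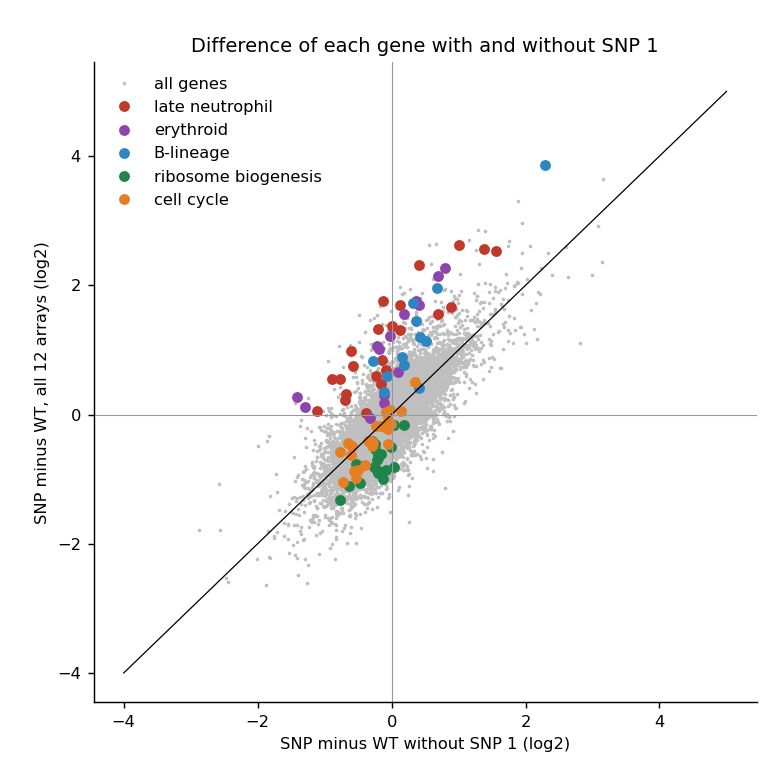
Difference between SNP and WT of each gene (log2), without SNP 1 on the horizontal axis and with it on the vertical axis, where the line marks equal values and both axes share 5 of their arrays. Late neutrophil, erythroid and B-lineage genes lie above the line and ribosome biogenesis genes below it, while cell cycle genes lie mostly below 0 on both axes.

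The 8 genes per direction with the smallest p on all 12 arrays led the comparison, leaving out uncharacterised, olfactory, vomeronasal and small RNA genes. None of the 16 passed (limma adjusted p from 0.0652 to 0.19). A gene so left out could have a smaller p than some of them. All 16 did not overlap between SNP and WT, and 12 of them were also among the 16 leading genes without SNP 1. A choice by p favours genes that do not overlap, so that count describes the choice. Of the 16, 6 rest on 1 probe set.

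Iigp1, an interferon-inducible GTPase that attacks the vacuoles of intracellular parasites, had the smallest p. It was at 8.59, 8.25 and 8.06 on SNP 1 to SNP 3 and at 6.02, 6.79 and 5.97 on WT 1 to WT 3. The lowest SNP array lay above the highest WT array, and SNP 1 was close to the other SNP arrays. The difference was 2.03 ± 0.26 (SE, adjusted p = 0.0652), and 1.89 ± 0.28 (adjusted p = 0.256) without SNP 1. The wtKI arrays lay between the groups at 7.08, 7.19 and 6.83, as did the KO arrays at 7.52, 7.09 and 7.03. SNP was 1.26 ± 0.26 above wtKI (adjusted p = 0.414). Iigp1 rests on 1 probe set.

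Egr2, a zinc-finger factor that drives macrophage genes in myeloid precursors and that Gfi1 is reported to repress, was at 8.23, 8.11 and 8.40 on the SNP arrays and at 6.96, 6.73 and 7.51 on the WT arrays. Its difference of 1.18 ± 0.23 (SE, adjusted p = 0.190) hardly moved without SNP 1 (1.19 ± 0.26, adjusted p = 0.329). The wtKI arrays were at 7.53, 7.70 and 7.67, above every WT array and below every SNP array. It also rests on 1 probe set.

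Other genes on the higher side have known roles outside the GMP. Pparg, a nuclear receptor of fat cells and alveolar macrophages, was at 7.89, 6.76 and 5.74 on the SNP arrays and at 4.76, 4.11 and 3.70 in WT, a difference of 2.61 ± 0.50 (SE, adjusted p = 0.170). All 3 WT arrays of Pparg were at or below the 5th percentile of signal, so the size of the difference is not exact. Cxadr, an adhesion protein and the receptor of coxsackieviruses and adenoviruses, was at 7.86, 8.02 and 7.62 against 6.71, 6.61 and 6.49, a difference of 1.23 ± 0.24. With the brightest of its 3 probe sets in place of their median, the difference of Cxadr was -0.01. Ugt1a6b, a glucuronosyltransferase, was at 8.75, 8.27 and 8.20 against 5.98, 6.33 and 6.78 (2.04 ± 0.31, adjusted p = 0.0832). Grik2, a glutamate receptor subunit (2.09 ± 0.34), Kcnab1, a potassium channel subunit (2.26 ± 0.37), and Rp1, a microtubule protein of photoreceptors (2.28 ± 0.36), were also higher. The wtKI arrays of Kcnab1, at 6.79, 5.47 and 6.57, overlapped the SNP arrays (SNP minus wtKI 0.39 ± 0.37). Those of Pparg, at 5.81, 6.22 and 5.14, overlapped them too. The wtKI arrays of Ugt1a6b, Grik2, Rp1 and Cxadr lay below every SNP array. For Rp1 and Kcnab1 all WT arrays were at or below the 5th percentile. The 2 probe sets of Kcnab1 differed by 0.17 and 4.36, and the 5 of Pparg by 0.03 to 3.48. The 3 of Cxadr differed by -0.007 to 0.993, each less than its gene value of 1.23. The gene values of Kcnab1, Pparg and Cxadr therefore join unlike probe sets. Ugt1a6b, Grik2 and Rp1 rest on 1 probe set each.

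On the lower side, Camkmt, which methylates calmodulin, was at 4.09, 3.98 and 4.57 on the SNP arrays and at 7.36, 5.90 and 6.97 on the WT arrays. Its difference was -2.53 ± 0.35 (SE, adjusted p = 0.0652), with 6 of 7 probe sets lower and all 3 SNP arrays at or below the 5th percentile. The wtKI arrays of Camkmt lay between the groups at 5.40, 5.34 and 5.67. Ndufs5, a subunit of complex I of the respiratory chain, was at 7.19, 6.93 and 7.17 against 9.25, 8.61 and 8.84 in WT. Its difference was -1.80 ± 0.26 (SE, adjusted p = 0.0652), and -1.85 ± 0.29 without SNP 1. The wtKI arrays of Ndufs5 were at 8.61, 8.59 and 7.91, above every SNP array. Ndufs5 rests on 1 probe set.

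Several lower genes rest on many probe sets that moved together. Pdcl3, a cochaperone of the CCT folding complex, was at 8.44, 8.27 and 8.08 on the SNP arrays and at 9.33, 9.53 and 9.19 in WT. It was lower in 7 of 7 probe sets, each without overlap, with a difference of -1.09 ± 0.19 (SE, adjusted p = 0.104). Smyd5, a lysine methyltransferase, was at 4.20, 5.04 and 5.81 against 7.55, 6.89 and 7.29, lower in 8 of 8 probe sets (-2.23 ± 0.37, adjusted p = 0.0876). Of these SNP values, 2 were at or below the 5th percentile. Yif1a, a protein of vesicle transport between endoplasmic reticulum and Golgi, was at 5.79, 5.99 and 6.16 against 7.47, 7.24 and 7.41, lower in 6 of 6 probe sets (-1.40 ± 0.21, adjusted p = 0.0832). Sf3a2, a subunit of the SF3A splicing complex, was at 7.73, 8.08 and 7.33 against 9.01, 8.88 and 8.77, lower in 10 of 11 probe sets (-1.18 ± 0.21, adjusted p = 0.118). The wtKI arrays of Yif1a (6.89 to 7.35), Sf3a2 (8.39 to 8.57) and Smyd5 (6.36 to 6.72) all lay above the SNP arrays. Ttc8, a subunit of the BBSome that carries proteins to the cilium, was at 4.17, 4.30 and 4.96 against 6.16, 6.45 and 6.54. Its difference was -1.91 ± 0.33 (SE, adjusted p = 0.110) from WT and -1.79 ± 0.33 (adjusted p = 0.357) from wtKI, with 3 of 4 probe sets lower. All 3 SNP arrays of Ttc8 were at or below the 5th percentile, so these sizes are not exact. The pseudogene Pdxk-ps was -1.34 ± 0.24 from WT and may share probes with its parent gene Pdxk. The wtKI arrays of Pdxk-ps, at 6.01, 5.98 and 5.61, overlapped the SNP arrays at 5.09, 5.68 and 5.56. Those of Pdcl3 (8.64 to 8.94) lay between the groups.

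**Figure D3:**
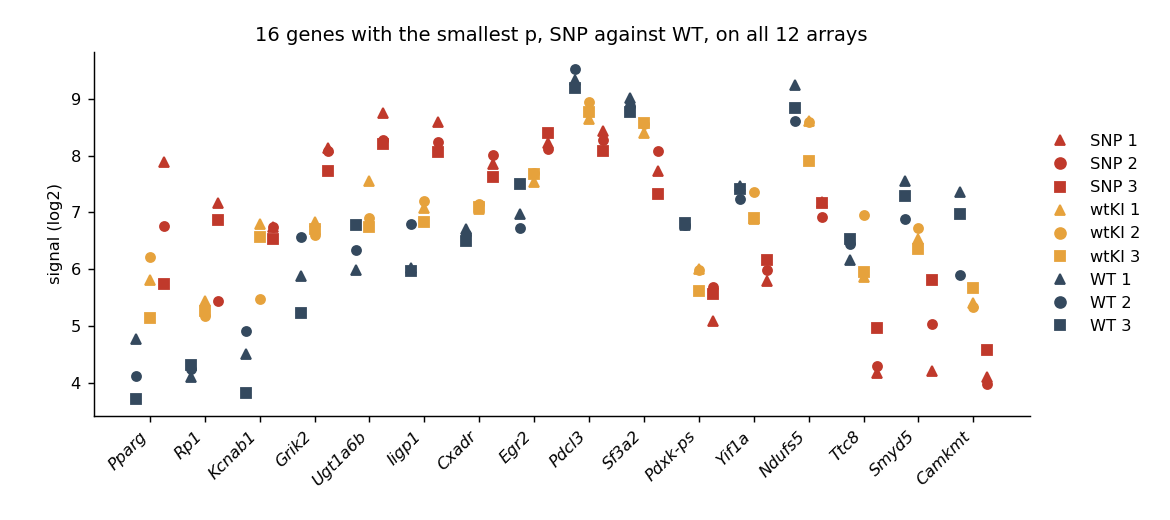
Signal (log2) of the 16 leading genes for SNP against WT, on the 3 SNP, 3 wtKI and 3 WT arrays. They were chosen by smallest p with uncharacterised genes left out, and are ordered by difference from Pparg (2.61) to Camkmt (-2.53). Every SNP point lies beyond every WT point, and the wtKI points show the common human form.

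Without SNP 1, 4 other genes entered the leading 16, again with none passing (adjusted p from 0.256 to 0.298). Lpar6, a receptor of lysophosphatidic acid, was at 7.83 and 8.38 on SNP 2 and SNP 3, 6.30 on SNP 1 and 5.79, 6.79 and 6.53 in WT (1.74 ± 0.34 without SNP 1, 1.13 ± 0.46 with it). Tgfb3, a growth factor of the TGF-beta family, was at 6.03, 6.69 and 6.94 against 5.37, 5.15 and 5.40 (1.51 ± 0.30 without SNP 1, not exact since all WT arrays were at or below the 5th percentile). Npff, a neuropeptide precursor, was 1.07 ± 0.21 higher. Scnn1a, a sodium channel subunit, was at 7.67 on SNP 1 and at 4.14 and 4.69 on SNP 2 and SNP 3, against 7.22, 6.67 and 7.99 in WT. Its difference was -2.88 ± 0.58 without SNP 1 and -1.80 ± 0.81 with it, since SNP 1 lay within the WT range.

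Gfi1 itself was measured by probes made for the mouse gene, while the SNP mice carried the human gene. The gene value was 6.65, 6.54 and 6.61 on the SNP arrays and 5.59, 5.78 and 6.29 on the WT arrays, a difference of 0.71 ± 0.22 (SE, adjusted p = 0.272) without overlap. Its direction depended on how the 5 probe sets were joined, with -0.02 for their mean and -0.31 for the brightest one, since the probe sets went opposite ways. Probe set 10532126 was at 3.83, 2.89 and 3.26 on the SNP arrays and at 5.08, 5.78 and 6.29 on the WT arrays, a difference of -2.39 ± 0.40 (SE, adjusted p = 0.246). Every SNP array and WT 1 were at or below the 5th percentile in this probe set, so that size is not exact. Probe set 10532129 was at 6.65, 6.66 and 7.14 against 5.59, 5.33 and 5.85, a difference of 1.23 ± 0.24. The wtKI arrays followed the SNP arrays in both, at 2.36, 3.65 and 2.78 in the first and at 6.88, 7.05 and 7.39 in the second. The KO arrays lay with WT or above it in both, so these 5 probe sets do not check the knock-out label. Gfi1b, the close relative of Gfi1 in the red cell and platelet lineages, was 0.21 ± 0.32 from WT (adjusted p = 0.753), and 0.12 ± 0.36 without SNP 1.

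**Figure D4:**
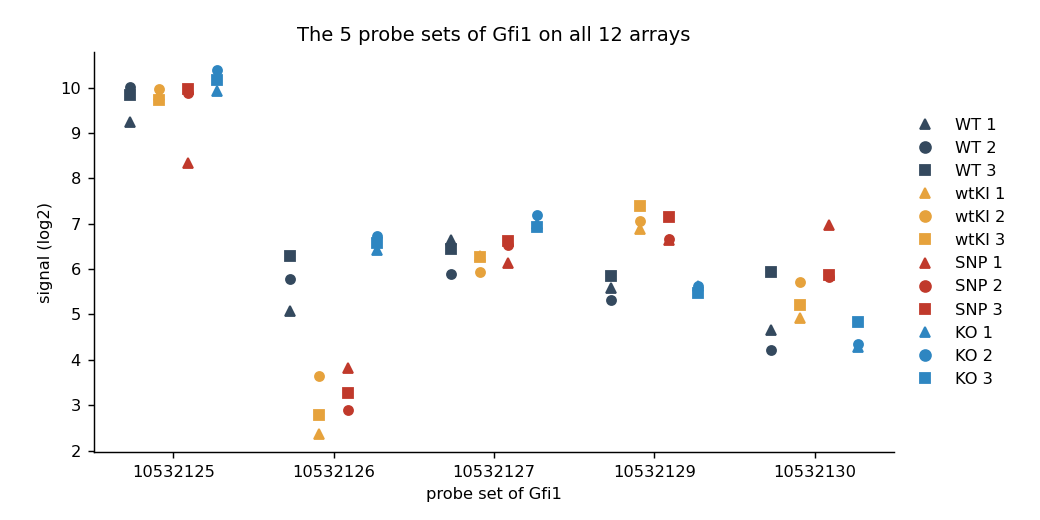
Signal (log2) of the 5 Gfi1 probe sets on all 12 arrays, coloured by genotype. In 10532126 the SNP arrays (2.89 to 3.83) and the wtKI arrays lie below WT and KO, and in 10532129 the SNP arrays (6.65 to 7.14) and the wtKI arrays lie above them.

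Of 10 measured genes reported as repressed by Gfi1, 6 were higher and 4 lower in SNP, with a median of 0.13, and 0.18 without SNP 1. At an unadjusted p under 0.05, Egr2 was higher and Irf8 lower. Irf8, a factor of the monocyte and dendritic cell fates, was at 7.79, 8.12 and 8.32 on the SNP arrays and at 8.80, 8.32 and 9.12 in WT. SNP 3 and WT 2 were nearly equal, and the difference was -0.67 ± 0.26 (SE, adjusted p = 0.301), and -0.53 ± 0.28 (adjusted p = 0.546) without SNP 1. Egr1 was at 7.67, 5.42 and 7.14 against 5.68, 6.46 and 5.97, with overlap. Hoxa9, a homeobox gene of leukaemic self-renewal, was at 5.55 on SNP 1 and at 8.78 and 9.34 on SNP 2 and SNP 3, against 8.80, 8.49 and 9.12 in WT. Its difference turned from -0.91 ± 0.72 to 0.26 ± 0.25 without SNP 1. Csf1, the macrophage growth factor, was -0.24 ± 0.54 from WT and Meis1, a partner of Hoxa9, 0.35 ± 0.43, both with overlap between the groups. Without SNP 1 these were -0.58 ± 0.57 and 0.67 ± 0.45.

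The promoters of Egr2 and Irf8 are shown because these reported targets went opposite ways. Each run is the 250 bases before the RefSeq start site (GRCm38.p6, plus strand), with the AATC core that GFI1 recognises, or its complement GATT, in capitals.
Egr2 promoter, chr10:67535249-67535498: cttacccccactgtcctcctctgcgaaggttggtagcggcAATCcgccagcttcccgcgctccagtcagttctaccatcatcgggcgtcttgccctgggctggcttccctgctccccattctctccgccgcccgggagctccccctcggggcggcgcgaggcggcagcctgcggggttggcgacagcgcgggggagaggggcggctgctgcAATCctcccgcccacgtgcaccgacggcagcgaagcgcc
Irf8 promoter, chr8:120736108-120736357: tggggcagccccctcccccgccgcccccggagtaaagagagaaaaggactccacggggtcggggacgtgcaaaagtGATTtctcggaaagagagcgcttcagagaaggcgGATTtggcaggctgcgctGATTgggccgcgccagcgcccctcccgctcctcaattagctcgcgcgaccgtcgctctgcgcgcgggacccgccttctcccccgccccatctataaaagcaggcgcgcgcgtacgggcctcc
Egr2 held 2 cores and Irf8 3, counted on both strands. The longer motif AAATCA, which contains the core, occurred 0 times in the first window and 1 time in the second. Of 32851 RefSeq promoter windows of this length, 69.0% held AATC and 12.4% AAATCA, so a core is common in any such window. A match describes the letters only.

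Myeloid transcription factors were mixed, with 10 of 17 higher and 7 lower (median 0.05), and 7 higher and 10 lower without SNP 1 (median -0.09). Jun, a subunit of the AP-1 factor that responds quickly to stress and growth signals, was at 9.50, 9.07 and 9.62 on the SNP arrays and at 7.11, 7.96 and 8.32 in WT. Its difference was 1.60 ± 0.44 (SE, adjusted p = 0.272), and 1.54 ± 0.50 (adjusted p = 0.448) without SNP 1. The wtKI arrays of Jun were at 9.05, 9.03 and 9.69, level with SNP (SNP minus wtKI 0.14 ± 0.44). Spi1, which encodes PU.1, was at 8.62 on SNP 1 and at 7.78 and 7.19 on SNP 2 and SNP 3, against 8.37, 8.29 and 8.49 in WT. Without SNP 1 it was -0.90 ± 0.28 from WT (adjusted p = 0.430), and with SNP 1 -0.52 ± 0.33. Runx1, a factor of blood stem cells, was at 6.95 on SNP 1 and at 8.62 and 8.44 on the others, just below the WT arrays at 8.74, 8.80 and 8.63.

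Immediate-early and stress genes were higher in 13 of 13 measured members, with a median of 0.76. Without SNP 1 they were higher in 9 of 13 with a median of 0.13, and their mean was 1.65 above WT on SNP 1, -0.04 on SNP 2 and 0.57 on SNP 3. Jun and Egr2 kept their differences without SNP 1, as given above. Fos, the partner of Jun, was at 7.76, 6.11 and 7.49 against 6.01, 6.28 and 6.27, with SNP 2 inside the WT range. Dusp1, a phosphatase of MAP kinases, was at 9.46, 7.08 and 8.57 against 6.99, 6.39 and 8.20, also with overlap.

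**Figure D5:**
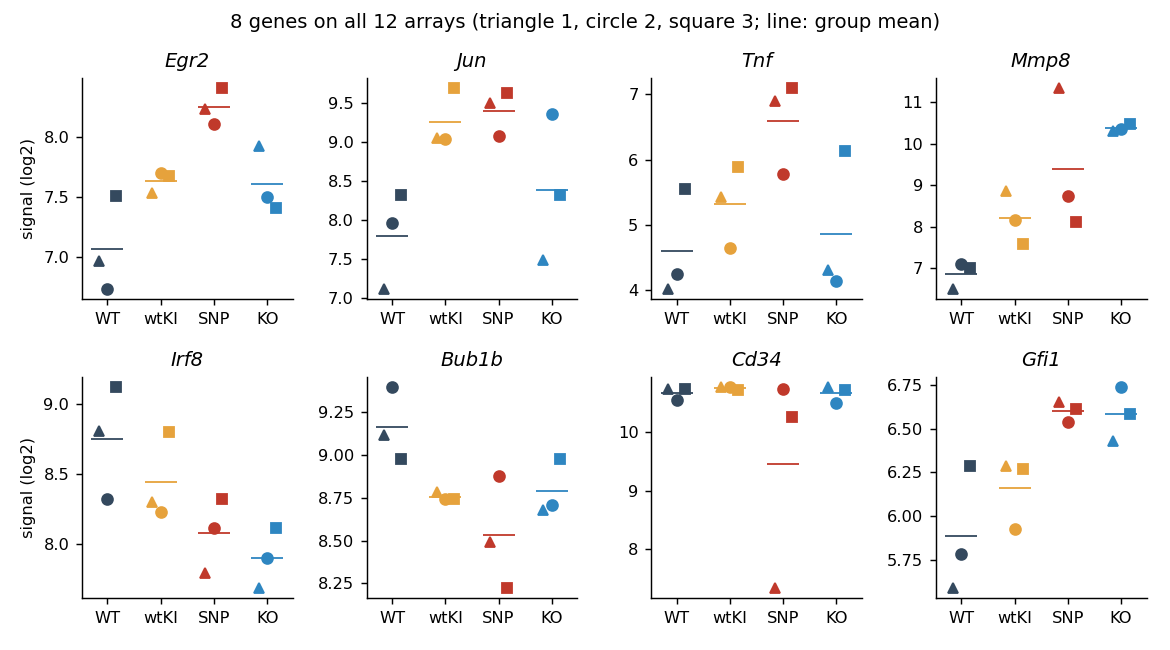
Signal (log2) of 8 genes on all 12 arrays, with the group means as lines, each panel on its own vertical range. Egr2, Jun, Tnf and Mmp8 are higher on each SNP array than on each WT array, Irf8 and Bub1b are lower, and Cd34 is low on SNP 1 only (7.35).

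Inflammatory cytokine and NF-kB genes were higher in 15 of 17 members (median 0.55), and in 8 of 17 without SNP 1 (median -0.01). Tnf, the cytokine that activates NF-kB, was at 6.89, 5.78 and 7.09 on the SNP arrays and at 4.02, 4.26 and 5.55 in WT. Its difference was 1.98 ± 0.59 (SE, adjusted p = 0.272), and 1.83 ± 0.66 (adjusted p = 0.462) without SNP 1. Il1b, another early inflammatory cytokine, was at 9.18 on SNP 1 and at 5.55 and 6.00 on SNP 2 and SNP 3, against 4.84, 5.49 and 4.64. The groups were apart, but SNP 2 exceeded WT 2 by little, and the difference moved from 1.92 ± 0.73 to 0.79 ± 0.32 without SNP 1. Ccl2, which attracts monocytes, was at 8.96, 8.49 and 8.99 against 8.08, 8.32 and 7.84 (0.73 ± 0.31). Tnf, Il1b and Ccl2 were the 3 of 17 members that were higher on each SNP array than on any WT array, where 11.6% of all genes were. In WT, 2 of the 3 arrays of Tnf and of Il1b were at or below the 5th percentile of signal.

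Interferon-stimulated genes did not move together, with 12 of 20 higher (median 0.24) and 7 of 20 without SNP 1 (median -0.14). Iigp1 was the member with the largest difference. Stat2, which carries the type I interferon signal, was at 8.55, 7.17 and 6.93 against 6.49, 6.06 and 6.57 (1.18 ± 0.38, and 0.68 ± 0.27 without SNP 1). Ifih1, a sensor of double-stranded RNA, went the other way at 5.79, 6.23 and 6.33 against 6.91, 7.43 and 7.30. Its difference was -1.09 ± 0.25 (SE, adjusted p = 0.235), and -0.93 ± 0.26 (adjusted p = 0.408) without SNP 1. Irf7, an amplifier of the interferon response, was at 9.71 on SNP 1 and at 6.14 and 5.85 on the others, against 5.84, 6.46 and 6.09. In the HIN-200 and SLAM gene clusters, Ifi202b was at 7.10 on WT 1 and between 1.94 and 2.67 on the other 5 arrays, so WT 1 alone had a clear signal, and its difference of -1.48 ± 1.05 was 0.20 without WT 1. Ifi204, a sensor of DNA, was at 9.28, 8.46 and 7.59 in SNP and 8.35, 5.98 and 6.65 in WT, with overlap.

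Cell cycle genes were lower in 20 of 24 members, with a median of -0.43. Without SNP 1 they were lower in 22 of 24, with a median of -0.29. Their mean was -0.58 on SNP 1, -0.07 on SNP 2 and -0.50 on SNP 3, with the WT arrays between -0.01 and 0.02, so SNP 2 lay close to WT. At an unadjusted p under 0.05, 7 of 24 were lower and 1 higher, where 8.32% of all genes were lower and 6.38% higher. Without SNP 1, 4 of 24 were lower and 0 higher, where 5.15% of all genes were lower and 4.67% higher. Bub1b, a kinase of the spindle checkpoint, was at 8.49, 8.88 and 8.22 against 9.11, 9.40 and 8.98. Its difference was -0.63 ± 0.21 (SE, adjusted p = 0.275), and -0.61 ± 0.24 without SNP 1, but 0.07 with the brightest of its probe sets. Mcm5, a subunit of the replicative helicase, was at 7.53, 8.71 and 8.23 against 9.07, 8.95 and 9.08 (-0.87 ± 0.29, and -0.56 ± 0.26 without SNP 1). Its sister subunit Mcm2 was at 6.82, 8.27 and 7.29 against 8.69, 8.26 and 8.56 (-1.04 ± 0.42), with SNP 2 inside the WT range. Aurka, a mitotic kinase, was -0.76 ± 0.32 from WT without SNP 1, and Birc5, a component of the chromosomal passenger complex, -0.66 ± 0.24. The wtKI arrays had cell cycle means of -0.22, -0.09 and -0.35, and 11 of 12 housekeeping genes kept as a check were lower in SNP too (median -0.21, and -0.16 without SNP 1).

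Ribosome biogenesis genes were lower in 21 of 21 members (median -0.76), and in 18 of 21 without SNP 1 (median -0.22). The mean of the list was -1.68 on SNP 1, -0.06 on SNP 2 and -0.43 on SNP 3. Pes1, which processes ribosomal RNA, was at 6.40, 8.51 and 7.61 against 8.81, 8.74 and 8.95 (-1.33 ± 0.61, and -0.78 ± 0.59 without SNP 1). Rrp12, a factor of ribosome export, was at 5.37, 6.90 and 6.66 against 7.65, 7.33 and 7.26 (-1.10 ± 0.44, and -0.64 ± 0.39 without SNP 1). Gnl3, the nucleolar protein nucleostemin, was at 7.14 on SNP 1 and at 9.87 and 9.62 on SNP 2 and SNP 3, within the WT range of 9.57 to 10.02. The subunits of the CCT chaperonin, which folds actin and tubulin, were lower in 8 of 8 members (median -0.58), and in 6 of 8 without SNP 1 (median -0.24). Tcp1, one of its subunits, was at 7.39, 9.33 and 9.31 against 9.79, 9.87 and 9.81. For comparison, the housekeeping genes were lower in 11 of 12 (median -0.21), and in 10 of 12 without SNP 1 (median -0.16).

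Oxidative phosphorylation genes were lower in 17 of 19 members (median -0.31), and in 15 of 19 without SNP 1 (median -0.16). The housekeeping genes kept as a check were lower in 11 of 12 (median -0.21), and in 10 of 12 without SNP 1 (median -0.16). Sdha is on both lists. Uqcrc1, a core protein of complex III, was at 8.56, 9.32 and 9.17 on the SNP arrays and at 10.18, 9.67 and 10.13 in WT. The groups did not overlap, and the difference was -0.98 ± 0.24 (SE, adjusted p = 0.245), and -0.75 ± 0.22 (adjusted p = 0.418) without SNP 1. The wtKI arrays of Uqcrc1 were at 9.72, 9.95 and 9.94. Ndufv1, a subunit of complex I, was at 7.43, 8.73 and 7.70 against 8.71, 8.81 and 9.32, with SNP 2 inside the WT range.

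The corepressors that GFI1 works through were lower in 15 of 17 members (median -0.46), and in 13 of 17 without SNP 1 (median -0.24). Their mean was -0.72 on SNP 1, -0.115 on SNP 2 and -0.36 on SNP 3. It was also below the WT mean on the wtKI arrays (-0.12, -0.10 and -0.18) and the KO arrays (-0.36, -0.28 and -0.08). Of the 12 housekeeping genes, 11 were lower in SNP too (median -0.21, and -0.16 without SNP 1). Kdm1a, the histone demethylase LSD1, was at 6.25, 8.28 and 8.13 against 8.78, 8.43 and 8.83. Its difference was -1.13 ± 0.46 (SE, adjusted p = 0.308), and -0.48 ± 0.28 (adjusted p = 0.595) without SNP 1. Hdac3, a histone deacetylase, was at 5.41 on SNP 1 and at 7.49 and 7.41 on SNP 2 and SNP 3, against 7.94, 7.07 and 8.06. Ctbp1, a corepressor, was at 8.73, 7.80 and 6.80 against 8.27, 7.93 and 8.63, -0.98 ± 0.37 from WT without SNP 1, but its difference over all SNP arrays was 0.04 with the brightest probe set and -0.50 ± 0.43 with the median.

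GMP identity genes were lower in 11 of 14 members (median -0.38), and in 10 of 14 without SNP 1 (median -0.14). Among the receptors of colony-stimulating factors, Csf3r, the receptor of G-CSF, was at 8.60 on SNP 1 and at 6.90 and 6.62 on SNP 2 and SNP 3, against 7.48, 8.03 and 7.59 in WT. It was -0.32 ± 0.45 from WT with SNP 1 and -0.94 ± 0.30 (adjusted p = 0.438) without it. Csf1r, the receptor of the macrophage factor, was at 7.91, 8.12 and 7.35 against 8.29, 8.09 and 8.57 (-0.52 ± 0.34). Primary granule genes were lower in 12 of 12 members (median -0.34), and in 8 of 12 without SNP 1 (median -0.05). Prtn3, proteinase 3, was at 6.81, 8.25 and 8.79 against 8.88, 8.87 and 9.02. Stem and early progenitor genes were split, with 9 of 16 higher (median 0.05) and 8 of 16 without SNP 1, and so was the Hoxa and Meis1 programme, with 3 of 10 higher on all arrays and 6 of 10 without SNP 1.

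Of 11 macrophage genes 2, and of 15 dendritic cell and MHC class II genes 2, were higher on each SNP array than on any WT array, where 11.6% of all genes were. Mrc1, the mannose receptor of macrophages, was at 7.49, 7.23 and 7.54 on the SNP arrays and at 6.31, 6.31 and 6.76 on the WT arrays. Its difference was 0.96 ± 0.20 (SE, adjusted p = 0.190), and 0.92 ± 0.22 (adjusted p = 0.354) without SNP 1, and the wtKI arrays lay between at 7.11, 6.86 and 7.12. Siglech, a lectin of plasmacytoid dendritic cells, was at 8.72, 7.25 and 5.03 against 4.71, 4.57 and 3.90 (2.60 ± 0.80, and 1.74 ± 0.71 without SNP 1). All WT arrays and 1 SNP array of Siglech were at or below the 5th percentile, so that size is not exact. Tcf4, the factor that specifies these cells, was lower at 6.74, 7.23 and 6.90 against 7.90, 7.60 and 7.47 (-0.70 ± 0.21), but 0.24 higher with its brightest probe set. Dendritic cell and MHC class II genes as a whole were split, with 7 of 15 higher in both fits. Their mean was nonetheless 1.11 above WT on SNP 1, against 0.02 on SNP 2 and 0.01 on SNP 3. On SNP 1, 11 of the 15 lay above the mean of SNP 2 and SNP 3. Among them were the MHC class II genes Cd74 (9.86 against 5.11 and 5.71) and H2-Ab1 (9.91 against 6.79 and 6.90).

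Among genes of cell death and the p53 response, Fas, the death receptor, was at 8.32, 5.91 and 6.05 against 5.31, 4.82 and 5.14. Its difference was 1.67 ± 0.51 (SE, adjusted p = 0.272), and 0.89 ± 0.26 (adjusted p = 0.418) without SNP 1. Tnfrsf10b, another death receptor, was at 5.74, 5.73 and 6.47 against 7.01, 6.73 and 6.88 (-0.89 ± 0.30, and -0.77 ± 0.34 without SNP 1). All WT arrays of Fas were at or below the 5th percentile, so its size is not exact. Both receptors were apart between the groups, in opposite directions. Bak1, which opens the outer mitochondrial membrane, was at 8.01, 7.82 and 7.67 against 8.41, 8.25 and 8.29 (-0.48 ± 0.23). The survival gene Bcl2 was at 5.92, 7.72 and 7.07 against 8.49, 7.38 and 8.01, with overlap. Of 16 p53 targets 8 were higher, and 6 without SNP 1, and of 14 BCL2 family genes 6 in both fits.

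Itga2b, the platelet integrin, was at 6.77, 6.77 and 6.84 on the SNP arrays and at 6.31, 6.11 and 6.17 in WT, a difference of 0.60 ± 0.20 (SE, adjusted p = 0.273) that was 0.61 ± 0.22 without SNP 1 and -0.01 with its brightest probe set. The other megakaryocyte and platelet genes were mixed (6 of 10 higher, median 0.14). Mast cell, basophil and eosinophil genes were higher in 4 of 13 (median -0.11).

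Next to Gfi1 on chromosome 5, 13 neighbouring genes had a value, and 5 were higher and 8 lower (median -0.09). Without SNP 1, 10 were higher and 3 lower (median 0.24). Rpap2, an RNA polymerase II phosphatase, was at 4.98, 6.34 and 6.90 against 7.91, 7.41 and 7.06 (-1.38 ± 0.44, and -0.83 ± 0.33 without SNP 1). Tmed5, a cargo receptor of the secretory pathway, was at 7.43, 6.93 and 6.97 against 7.69, 7.85 and 7.70 (-0.63 ± 0.23). Cdc7, a kinase that starts DNA replication, was at 7.15, 7.84 and 7.29 against 6.72, 6.89 and 6.54 (0.71 ± 0.31). These 3 genes lay apart between the groups with and without SNP 1, and the wtKI arrays differed from WT by -0.45, -1.22 and 0.72 for them. With Gfi1 counted, 4 of 14 genes lay apart on the higher side and 2 on the lower, and 6 and 3 without SNP 1. Of all genes, 23.6% lay apart in either direction, and 33.4% without SNP 1.

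Single probe sets, which follow exons, differed by more than whole genes. A probe set of Mcm2 (10546172) was at 5.36, 6.09 and 6.01 on the SNP arrays and at 8.18, 7.77 and 8.13 in WT (-2.20 ± 0.27, adjusted p = 0.145), while the gene as a whole overlapped. A probe set of Tgfb1, a growth factor that restrains progenitor growth, was at 6.94, 7.10 and 7.38 against 8.99, 8.92 and 8.82 (-1.77 ± 0.22). A probe set of Agap3, an Arf GTPase-activating protein, was -2.64 ± 0.31 from WT, with all SNP arrays at or below the 5th percentile. On the higher side, a probe set of Kif18b, a mitotic kinesin, was at 7.78, 7.36 and 7.16 against 5.35, 5.34 and 5.48 (2.05 ± 0.28), and one of Rev1, a DNA repair polymerase, was 2.66 ± 0.34 higher. All 3 WT arrays of the Rev1 probe set and 2 of the Kif18b probe set were at or below the 5th percentile, so the sizes here are not exact. None of these passed (adjusted p from 0.145 to 0.168).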

How the data were processed

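The 12 arrays were grouped by their labels. Per the labels' protocols, the total RNA went through a NuGEN amplification meant for small amounts before hybridisation. The authors deposited log2 signals. The submitters' processing notes name RMA, with settings not given in the sources used here. The table holds 105661 exon-level probe sets, each reaching at least 6.14 on some array, so genes low everywhere are missing. The platform annotation gives 98975 of them 1 gene symbol, 1703 several and 4983 none. Symbols were updated through RefSeq (GRCm38.p6, 14146 of 14179 genes matched), and a gene's value is the median of its single-symbol probe sets.

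The tool limma 3.58.1 (lmFit and eBayes, R 4.3.3) tested SNP minus WT in a model of 4 genotype means on all 12 arrays, and on 11 without SNP 1, with Benjamini-Hochberg adjustment over all genes. Errors with a difference are standard errors of that fit, with 3 arrays a group (2 SNP arrays without SNP 1). The script was tested on simulated data. The number of arrays limits the precision.

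The members and lists were chosen with earlier results of these data known. Named were Gfi1 and Gfi1b, the 8 genes per direction with the smallest p in each fit, up to 4 members per list with the largest difference in either fit, and up to 5 probe sets per direction, leaving out uncharacterised, olfactory, vomeronasal and small RNA genes. Alternatives covered the summary of probe sets, centring, quantile normalization, a filter on dim genes, the arrays fitted, the variance model, array weights, a replicate block and leaving out each array. Promoter sequences are RefSeq's.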

Additional observations from a re-analysis of the deposited data

Results flagged for a closer look

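The named probe sets with the smallest p on the higher side, with or without SNP 1, included 3 without a gene symbol. These are outside the comparison of genes. Probe set 10348366 was at 8.36, 7.97 and 8.05 on the SNP arrays and at 4.80, 5.21 and 4.93 on the WT arrays, a difference of 3.15 ± 0.37 (limma adjusted p = 0.145). Probe set 10533668 was at 7.90, 8.78 and 6.87 against 3.47, 3.77 and 1.22, a difference of 5.03 ± 0.66 (adjusted p = 0.163). In both, all WT arrays were at or below the 5th percentile of signal, so the sizes are not exact. Probe set 10452727 was at 7.86, 8.67 and 8.33 against 6.59, 6.27 and 5.97, a difference of 2.01 ± 0.31 (adjusted p = 0.193). None passed, and in each the SNP and WT arrays did not overlap.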

How the results depend on the processing

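With all SNP arrays, limma called 0 genes, but 5 after repeated quantile normalization (Camkmt, Gm11639, Iigp1, Ndufs5 and Smyd5), 5 with array weights (Rp1 in place of Smyd5), 1 without the dimmest 30% of genes (Iigp1) and 1 without KO 1 (Gm11639, a gene outside the naming rule that was chosen after its values were seen). Dropping 1 array at a time gave 0 to 2 calls, with Rp1 without SNP 2, and Camkmt and Iigp1 without WT 2. Without SNP 1, leaving out a further array gave the same range of 0 to 2. The other settings called 0 genes, and the fits on probe sets called 0 throughout. The replicate number as a block gave 0 calls and 2278 genes at an unadjusted p under 0.05, against 2085. Same-numbered SNP and WT arrays did not deviate together (correlations 0.005, -0.017 and -0.035), so this measure gave no sign of pairing by number. The deviations were taken from group means that include SNP 1, so it cannot decide whether the numbers pair the arrays. Only the SNP and WT arrays gave 1850 such genes, and leaving out WT 3, the WT array low in Y-linked genes, 1455. Among named genes, differences turned to Gfi1 -0.31, Cxadr -0.007, Ctbp1 0.044, Tcf4 0.24, Itga2b -0.012, Bub1b 0.073, Bcl2 0.001 with the brightest probe set, to Gfi1 -0.018 with the mean of the probe sets and to Cxcr2 -0.73 with array weights. Leaving out arrays spread Fcgr3 from -0.49 to 0.060, Csf3r from -0.94 to 0.054, Meis1 from -0.050 to 0.83, Hoxa9 from -1.64 to 0.26, Csf1 from -0.93 to 0.17, Cxcr2 from -1.12 to 0.72, Irf7 from -0.14 to 1.80, Ifi202b from -2.38 to 0.20, each turning sign. The causes were not tested. Of 986 values for list medians under the alternatives, 29 moved by more than the spread between arrays. That spread included SNP 1, so it was wide for lists in which SNP 1 stood apart. The late neutrophil median, 0.98 with SNP 1 and -0.15 without it, did not count as moved. The count of 29 therefore does not measure how far list medians depend on SNP 1.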
